A study of Mus musculus with 18 samples.

Results

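The genes described here are 10 known targets of the glucocorticoid receptor, Tsc22d3, Fkbp5, Zbtb16, Sgk1, Klf9, Ddit4, Dusp1, Cebpd, Pdk4 and Map3k6, out of 18585 genes in the deposited table. They were chosen by symbol, with earlier results of these data in view, so their values are a description. Where a call of the model fitted to all genes is named for one of them, it says on which side of the threshold the gene fell and is no independent test. RNA was taken from the forepaws of C57BL/6 mice that were wild type (WT) or homozygous mutants of Sema3b (Sema3b-/-), in the control state or with arthritis. Sema3b encodes a secreted semaphorin. Of the 18 libraries, 4 WT and 4 Sema3b-/- ones came from controls, and 5 of each genotype from arthritic paws. The labels used here give strain, genotype, treatment and tissue, and do not give the arthritis model, its duration, the age or sex of the mice, the time of day at death or any steroid treatment.

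Glucocorticoids are adrenal steroid hormones, and corticosterone is the main one in mice. The hormone binds a receptor that waits in the cytosol on Hsp90 and its co-chaperones, and the bound receptor enters the nucleus, where it raises the transcription of genes with a palindromic response element and represses many inflammatory genes. In arthritis, endogenous and therapeutic glucocorticoids are known to act on synovial fibroblasts, macrophages and the muscle and skin around the joint. Most targets also answer to other signals: Dusp1 and Cebpd to inflammatory stimuli, Ddit4 to hypoxia and Pdk4 to fasting.

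All 10 genes passed the filter on low values, which kept 13809 genes with at least 10 normalized counts in at least 4 libraries. A normalized count is the number of reads divided by the size factor of the library. Total reads ran from 1732783 to 19464892 per library, with a median of 7279064, and 3 reads, the limit that a count of 0 allows, are worth 1.31 to 12.1 normalized counts. Sema3b was read 45 to 73 times in the WT control libraries and 0 to 6 times in the Sema3b-/- control libraries. Sex was read from Xist and Y-linked genes, since the labels are silent on it: all 4 WT control libraries were female, as were 2 of 4 Sema3b-/- control, 1 of 5 WT arthritis and 4 of 5 Sema3b-/- arthritis libraries. In WT, arthritis and sex therefore differ together in all but 1 of the 9 libraries. The titles of 7 arthritis libraries start with the word Joint, and those of WT arthritis 5 and Sema3b-/- arthritis 1 and 2 do not. Every control title starts with MI and no arthritis title does, so this part of the title and arthritis differ together. A forepaw holds skin, muscle, nerve, bone, cartilage and synovium, and in such bulk samples fewer cells of a type and less RNA per cell cannot be told apart.

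The sequences below show matches to the receptor's element, to its shorter core and to the cAMP response element near a start site of Sgk1, Map3k6 and Dusp1, in that order. RefSeq promoter windows of 300 bases, from 250 bases before to 50 after an annotated start on GRCm38.p6, were found for 8 of the 10 genes, 15 windows in all, since Sgk1 and Tsc22d3 have several starts. The full palindrome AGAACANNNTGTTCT, searched on both strands, was in 3 of 32851 windows of all genes (0.00913%), and 1 of the 3 is a start of Sgk1, at chr10:21993640-21993939 on the plus strand. The shorter core ACANNNTGT, which is part of the palindrome, was in 6.85% of all windows and in 3 of the 15, namely that Sgk1 window, another Sgk1 window and that of Map3k6 at chr4:133240568-133240867 on the plus strand. The cAMP response element TGACGTCA was in 1.79% of all windows and in 1 of the 15, that of Dusp1 at chr17:26508423-26508722 on the minus strand. Each window is printed 5′ to 3′ on the strand of the gene with the match in capitals.
Sgk1: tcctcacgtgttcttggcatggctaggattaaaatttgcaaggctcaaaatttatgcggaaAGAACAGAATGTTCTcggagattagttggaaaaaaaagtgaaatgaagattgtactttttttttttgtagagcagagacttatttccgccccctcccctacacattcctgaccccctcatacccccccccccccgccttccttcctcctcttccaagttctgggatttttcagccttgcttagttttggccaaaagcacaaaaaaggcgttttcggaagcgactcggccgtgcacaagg
Map3k6: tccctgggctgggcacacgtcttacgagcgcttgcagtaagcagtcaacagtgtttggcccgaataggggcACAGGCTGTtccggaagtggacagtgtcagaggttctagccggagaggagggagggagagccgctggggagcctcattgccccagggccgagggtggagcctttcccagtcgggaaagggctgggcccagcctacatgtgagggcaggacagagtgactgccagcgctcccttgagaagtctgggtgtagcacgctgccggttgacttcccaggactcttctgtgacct
Dusp1: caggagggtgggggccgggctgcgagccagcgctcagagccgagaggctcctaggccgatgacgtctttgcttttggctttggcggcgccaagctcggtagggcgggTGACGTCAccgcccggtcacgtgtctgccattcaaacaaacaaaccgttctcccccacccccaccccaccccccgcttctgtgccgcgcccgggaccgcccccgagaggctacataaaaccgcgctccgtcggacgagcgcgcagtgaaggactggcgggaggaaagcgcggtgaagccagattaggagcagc
The Sgk1 palindrome began 189 bases before the start, the Map3k6 core 179 bases before and the Dusp1 element 143 bases before. A match is a run of letters, not a measured binding site. CEL-seq reads a tag near the 3′ end of each RNA, so the start that was used in these paws was not measured. Receptor sites of many targets are known to lie far outside such windows.

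Fkbp5 encodes an Hsp90 co-chaperone that lowers the receptor's affinity for hormone, and its induction is a standard readout of receptor activity. The gene lies at chr17:28399094-28517527 on the minus strand (mm10). It had 53.1, 43.3, 54.4 and 44.3 normalized counts in WT control replicates 1 to 4, and 44.5, 54.8, 54.6 and 43.2 in Sema3b-/- control. It had 60.6, 92.5, 82.8, 80.0 and 87.5 in WT arthritis replicates 1 to 5, and 57.0, 87.2, 59.3, 119 and 94.5 in Sema3b-/- arthritis. Every arthritis library lay above every control library, in both genotypes. The means were 48.8 ± 5.76 (SD, n = 4) and 49.3 ± 6.28 (SD, n = 4) in control paws, and 80.7 ± 12.2 (SD, n = 5) and 83.5 ± 26.0 (SD, n = 5) with arthritis. On the log2(normalized count + 1) scale, which is used for every difference here, arthritis was higher by 0.71 (SE 0.21) in WT and by 0.70 (SE 0.21) in Sema3b-/- mice. Only the difference in Sema3b-/- mice passed the threshold of an adjusted p under 0.05 over all genes in limma, and it did not pass when Sema3b-/- control 1, 3 or 4, or Sema3b-/- arthritis 2, 4 or 5, was left out in turn (0.56 to 0.75), with no filter on low values (0.70), with the replicate block (0.66), or without the 3 arthritis libraries not titled Joint (0.82). DESeq2 as rerun here also called the WT difference, while the authors' deposited table called neither difference. Between genotypes, Sema3b-/- minus WT was 0.01 (SE 0.23) in control and 0.01 (SE 0.20) in arthritis, each far inside its SE. With sex as a term in the model, the WT difference was 0.42. The single female library among WT arthritis was replicate 1, the lowest of that group. Across libraries, Fkbp5 correlated with summed myeloid markers (r = 0.72, n = 18, and 0.41 after removing group means). With summed Schwann cell markers the values were -0.69 and 0.00. The part of these shares in the Fkbp5 differences was not tested.

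**Figure D1:**
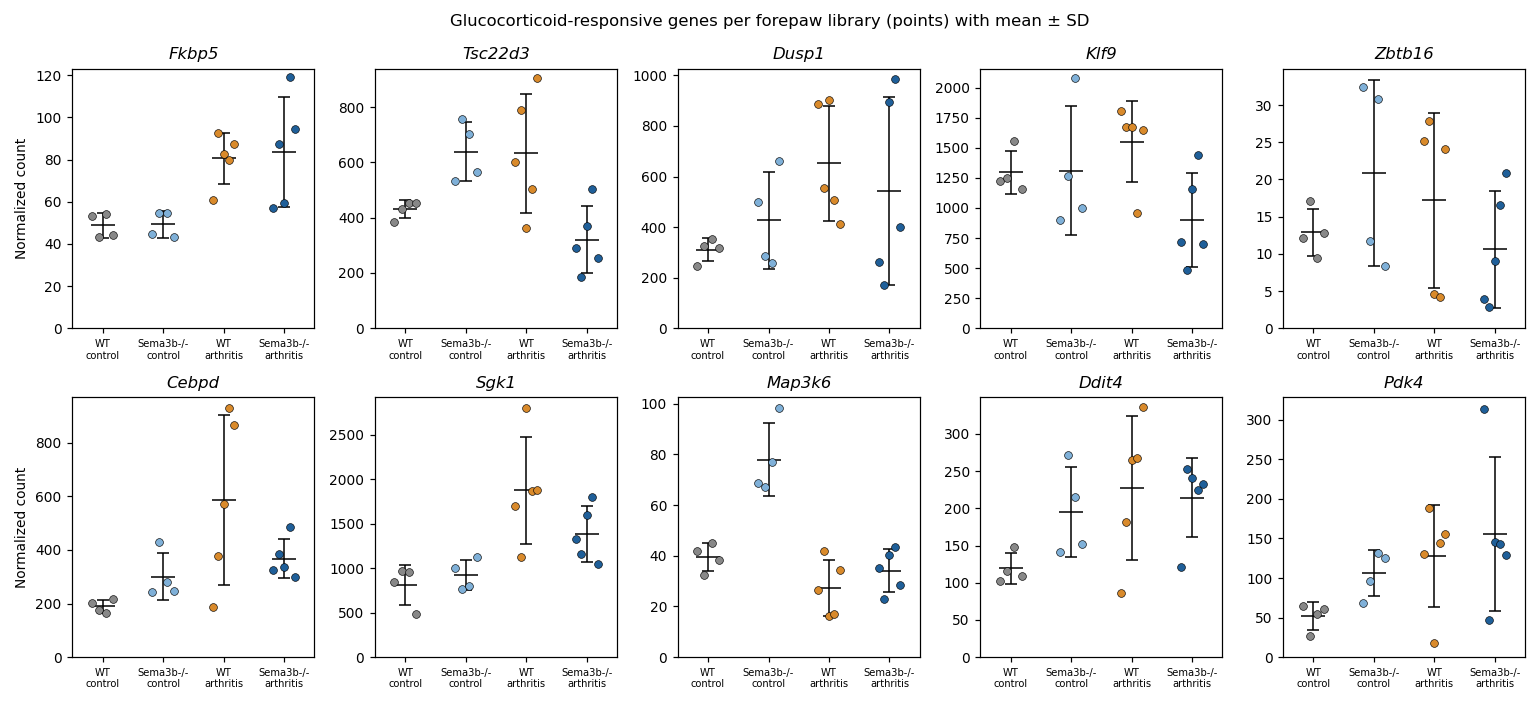
Normalized counts of the 10 glucocorticoid-responsive genes (y axis, linear from 0) in each library of the 4 groups (x axis); points are libraries, the short bar is the mean and the whiskers are ± 1 SD. Fkbp5 separates arthritis from control in both genotypes, Map3k6 is highest in all 4 Sema3b-/- control libraries, and Tsc22d3 is lower in Sema3b-/- arthritis than in every Sema3b-/- control library.

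Tsc22d3 and Dusp1 are the classical anti-inflammatory effectors of the hormone. Tsc22d3 encodes GILZ, a leucine zipper protein that binds and restrains NF-kappaB and AP-1, and lies at chrX:140539528-140600659 on the minus strand. It had 384, 432, 452 and 453 normalized counts in WT control and 534, 755, 702 and 566 in Sema3b-/- control, so the 2 control groups did not overlap. With arthritis, it had 600.3, 789, 364, 505 and 904 in WT and 290.2, 186, 369, 503 and 254 in Sema3b-/- mice. The direction of the arthritis difference was opposite in the 2 genotypes. In WT the mean went from 430.2 ± 32.5 (SD, n = 4) to 633 ± 216 (SD, n = 5), a difference of 0.49 (SE 0.26) with overlapping groups. In Sema3b-/- mice it went from 639 ± 106 (SD, n = 4) to 320.4 ± 121 (SD, n = 5), a difference of -1.06 (SE 0.26), and no arthritis library reached the lowest control library. This difference passed the all-gene threshold in limma, with each of the 18 libraries left out in turn, and in edgeR and DESeq2. Without the 3 arthritis libraries not titled Joint it was -0.81 and did not pass. Within arthritis, Sema3b-/- minus WT was -0.99 (SE 0.25), which limma and edgeR did not call and DESeq2 as rerun here did. The authors' deposited table did not call it. The gap in the arthritis difference between genotypes (the interaction) was -1.55 (SE 0.37), the most negative of the 10 genes, and was not called by limma, edgeR or DESeq2.

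Dusp1 encodes a phosphatase that switches off the MAP kinases p38 and JNK, and lies at chr17:26505590-26562128 on the minus strand. It had 246, 324, 353 and 318 normalized counts in WT control, and 886, 553, 901, 507 and 411 in WT arthritis, so each WT arthritis library lay above each WT control library. The Sema3b-/- libraries had 498, 287, 258 and 663 in control, and 262, 172, 895, 986 and 400.1 with arthritis, and these groups overlapped almost wholly. The arthritis difference was 1.01 (SE 0.45) in WT and 0.15 (SE 0.45) in Sema3b-/- mice, and neither passed the threshold. Within Sema3b-/- control, the 2 female libraries had 498 and 663 and the 2 male ones 287 and 258. Dusp1 is also an immediate early gene of the stress and growth factor response.

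Klf9, Zbtb16 and Cebpd are transcription factors. Klf9, a zinc finger repressor induced by corticosterone in many tissues, lies at chr19:23141226-23168134 on the plus strand and was among the more abundant members, with control means of 1296 ± 179 (SD, n = 4) for WT and 1311 ± 535 (SD, n = 4) for Sema3b-/- paws. With arthritis it had 1805, 1673, 1673, 960.3 and 1649.8 normalized counts in WT, and 713, 484, 1161, 1437 and 697 in Sema3b-/- mice. In Sema3b-/- arthritis, 3 of 5 libraries were below the lowest WT arthritis library. The arthritis difference was 0.24 (SE 0.29) in WT and -0.57 (SE 0.29) in Sema3b-/- mice, and Sema3b-/- minus WT in arthritis was -0.86 (SE 0.27). None of these passed the threshold.

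Zbtb16 encodes PLZF, a zinc finger factor that in many tissues is nearly silent without hormone. It lies at chr9:48654297-48836222 on the minus strand. It had the lowest values of the 10 genes, between 2.84 and 32.4 normalized counts. Its reads ran from 3 to 64 per library, and its differences had SEs of 0.61 to 0.68 for the contrasts of 2 groups. Sema3b-/- control replicates 1 to 4 had 32.4, 11.7, 30.9 and 8.39, and the highest, in replicate 1, rested on 8 reads. WT arthritis split into 3 libraries at 25.1, 27.9 and 24.1 and 2 libraries, replicates 3 and 4, at 4.60 and 4.25. Sema3b-/- arthritis replicates 1 and 2 had 3.89 and 2.84, and replicates 3 to 5 had 9.05, 16.6 and 20.8. The arthritis difference was 0.05 (SE 0.65) in WT and -1.01 (SE 0.65) in Sema3b-/- mice, and no contrast of Zbtb16 was called. The WT value ran from -0.21 to 0.41 with 1 library left out, so its direction was not fixed.

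Cebpd encodes C/EBP delta, an acute-phase factor induced by IL-6 and IL-1 as well as by glucocorticoids, and lies at chr16:15887286-15891031 on the plus strand as a single-exon gene. It had 203, 177, 164 and 216 normalized counts in WT control, and 188, 378, 570.3, 931 and 866 in WT arthritis. The WT mean rose from 190.0 ± 23.7 (SD, n = 4) to 586 ± 316 (SD, n = 5), a difference of 1.41 (SE 0.35) that passed the all-gene threshold although WT arthritis 1, the female library, lay within the control range. The call was lost when any 1 WT control library, or WT arthritis 3, 4 or 5, was left out (1.19 to 1.48), without the libraries not titled Joint (1.22), with the replicate block (1.35), and with sex as a term (0.90). In Sema3b-/- mice it had 243, 431, 280.2 and 247 in control and 327, 385, 338, 484 and 301 with arthritis, a difference of 0.31 (SE 0.35). In control paws the genotypes did not overlap, with a difference of 0.62 (SE 0.37) that was not called. Cebpd moved with the myeloid markers across libraries (r = 0.76, n = 18, and 0.58 after removing group means), and these libraries share depth and tissue. The summed myeloid markers ran from 0.0957% to 0.130% of counts in WT control and from 0.0742% to 0.566% in WT arthritis, and the lowest share among all libraries was that of WT arthritis 1. The part of this share in the Cebpd difference was not tested.

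Sgk1, Map3k6, Ddit4 and Pdk4 act in kinase signalling and metabolism. Sgk1 encodes the serum- and glucocorticoid-induced kinase, which controls ion channels and cell survival, and lies at chr10:21882184-21999903 on the plus strand. It had 848, 967, 953 and 489 normalized counts in WT control and 1699, 1129.6, 2807, 1875 and 1877 in WT arthritis. Each WT arthritis library was above each control library, and the mean rose from 814 ± 224 (SD, n = 4) to 1877 ± 603 (SD, n = 5). The difference of 1.19 (SE 0.24) passed the threshold, also with each of the 18 libraries left out in turn and under each other setting tried, sex as a term included. In Sema3b-/- mice it had 999, 762, 801 and 1125 in control and 1326, 1155, 1596, 1804 and 1044 with arthritis. This difference of 0.58 (SE 0.24) had the same direction, overlapped by 1 library and did not pass. The interaction was -0.62 (SE 0.34), so a smaller Sgk1 difference in Sema3b-/- mice is not shown.

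Map3k6 encodes ASK2, a stress kinase upstream of JNK and p38, and lies at chr4:133240818-133252929 on the plus strand. It had 42.0, 32.5, 45.0 and 38.4 normalized counts in WT control, and 68.8, 67.0, 77.2 and 98.3 in Sema3b-/- control. All 4 Sema3b-/- control libraries lay above the other 14. With arthritis it had 26.6, 41.9, 16.1, 17.0 and 34.2 in WT and 35.0, 22.7, 40.2, 43.6 and 28.5 in Sema3b-/- mice. It fell in Sema3b-/- arthritis from 77.8 ± 14.4 (SD, n = 4) to 34.0 ± 8.49 (SD, n = 5), a difference of -1.19 (SE 0.28) that was called with each of the 18 libraries left out in turn. Without the 3 arthritis libraries not titled Joint the difference was -1.04 and was not called. In WT the difference was -0.61 (SE 0.28), not called, and Sema3b-/- minus WT in control was 0.96 (SE 0.30), not called. Map3k6 was the one member that was lower with arthritis in both genotypes.

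Ddit4 encodes REDD1, an inhibitor of the growth kinase mTORC1, and lies at chr10:59949669-59951834 on the minus strand. In control paws it had 103 to 148 normalized counts (WT) and 142 to 272 (Sema3b-/-), and with arthritis 85.8 to 337 (WT) and 121 to 253 (Sema3b-/-). The lowest arthritis values were those of WT arthritis 1 and Sema3b-/- arthritis 1, at 85.8 and 121. The arthritis difference was 0.80 (SE 0.33) in WT and 0.14 (SE 0.33) in Sema3b-/- mice, and with sex as a term the WT difference was 0.14. Neither limma nor the authors' deposited table called either difference. DESeq2 as rerun here called the WT one, as did limma in 1 of the 18 fits with 1 library left out. Of 12 hypoxia and stress genes, listed because they share Ddit4's other inputs, limma called 0 in WT, as did edgeR and DESeq2, with 3 at an unadjusted p under 0.05, where 21.2% of all genes had one. In Sema3b-/- mice limma called 0, with 2 at an unadjusted p under 0.05 against 28.5% of all genes, and edgeR and DESeq2 called 1 each.

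Pdk4 encodes a mitochondrial kinase that inhibits pyruvate dehydrogenase in fasting, and lies at chr6:5483351-5496309 on the minus strand. It had 65.2, 26.2, 54.4 and 61.4 normalized counts in WT control, and 68.8, 96.7, 132 and 126 in Sema3b-/- control, which did not overlap. With arthritis it had 130.1, 189, 18.4, 145 and 156 in WT and 314, 47.4, 146, 143 and 129 in Sema3b-/- mice. WT arthritis 3 and Sema3b-/- arthritis 2 stood far below their groups. The arthritis difference was 1.03 (SE 0.60) in WT and 0.36 (SE 0.60) in Sema3b-/- mice, and Sema3b-/- minus WT in control was 1.05 (SE 0.63). None of these passed the threshold. Single libraries moved these values: the WT difference was 1.63 without WT arthritis 3 and 0.74 without WT control 2, and the Sema3b-/- one 0.05 without Sema3b-/- arthritis 1 and 0.73 without Sema3b-/- arthritis 2. Without WT arthritis 3 and Sema3b-/- arthritis 2 together, a choice made after the data were seen, the WT difference of 1.63 (SE 0.31) passed the threshold.

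In WT mice, 9 of the 10 genes were higher with arthritis, with a median difference of 0.75 against -0.02 over all 13809 genes. With sex as a term, 8 of 10 were higher, with a median of 0.43. Limma called 2 of 10, Sgk1 and Cebpd, where it called 4.21% of all genes, and DESeq2 called 4 of 10 and 9.26% of all genes. For 3 of 10, Fkbp5, Sgk1 and Dusp1, the groups did not overlap, as was so for 10.5% of all genes. In Sema3b-/- mice, 6 of 10 were higher, with a median of 0.14 against -0.01 over all genes. Limma called 3, Fkbp5 as higher and Tsc22d3 and Map3k6 as lower, where 12.4% of all genes were called, and the same 3 did not overlap, as did 13.2% of all genes. The list was drawn up with these contrasts known, so nothing is read from these shares. The authors' deposited table calls Sgk1 and Cebpd in WT and Tsc22d3 and Map3k6 in Sema3b-/- mice.

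**Figure D2:**
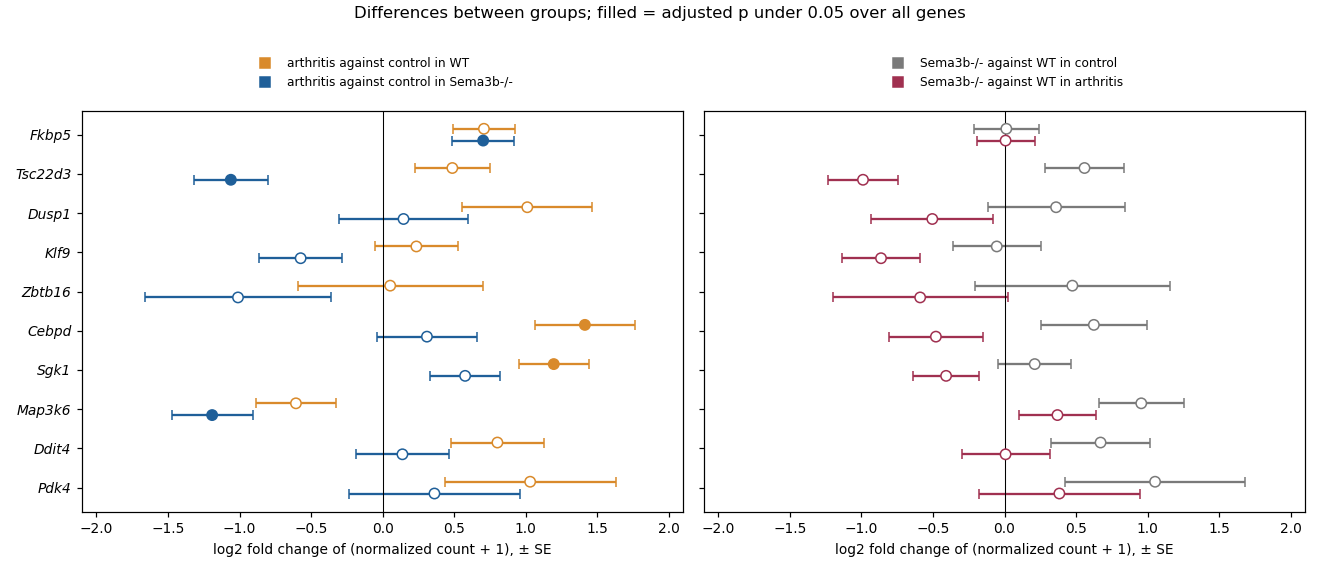
Difference of each gene on the log2(normalized count + 1) scale with its SE (x axis) for arthritis against control in each genotype (left) and Sema3b-/- against WT in each condition (right); filled circles passed an adjusted p under 0.05 over all genes in limma. The 2 arthritis contrasts lie on top of each other for Fkbp5 and on opposite sides of 0 for Tsc22d3, Klf9 and, with a WT value of 0.05, Zbtb16, and no circle on the right is filled.

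Between genotypes in control paws, 9 of 10 genes were higher in Sema3b-/- mice, with a median difference of 0.52 against -0.01 over all genes. The exception was Klf9, at -0.05 (SE 0.31). For 4 genes, Tsc22d3, Cebpd, Pdk4 and Map3k6, each Sema3b-/- library lay above each WT library, which was the case for 2.07% of all genes in that direction. Limma called 0 of the 10 and 0.0145% of all genes, and 1 of the 10 had an unadjusted p under 0.05 against 5.87% of all genes. All WT control libraries were female and 2 of the Sema3b-/- ones were male. With sex as a term, 8 of 10 genes were higher in Sema3b-/- control, with a median of 0.36.

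Between genotypes in arthritis, 6 of 10 genes were lower in Sema3b-/- mice, with a median of -0.44 against 0.00 over all genes. Limma called 0 of the 10 and 0.0217% of all genes, 0 had groups that did not overlap against 1.77% of all genes, and 2 of the 10, Tsc22d3 and Klf9, had an unadjusted p under 0.05 against 8.97% of all genes. DESeq2 as rerun here called 1, Tsc22d3, where it called 0.681% of all genes. The authors' deposited table called 2 genes in all for this contrast, and Tsc22d3 was not among them. Of the WT arthritis libraries 1 of 5 was female, and of the Sema3b-/- arthritis ones 4 of 5. With sex as a term, 6 of 10 genes were lower in Sema3b-/- arthritis, with a median of -0.28. Without the 3 arthritis libraries not titled Joint, 6 of 10 were higher in Sema3b-/- arthritis, with a median of 0.10. The difference in Tsc22d3 was then -0.59.

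The interaction was negative for 10 of 10 genes, with a median of -0.74, where 49.1% of all genes were negative. It combines the higher Sema3b-/- control levels and the lower Sema3b-/- arthritis levels already given, and is no separate observation. Limma called 0 of the 10 and 0.0% of all genes, edgeR also called 0 of the 10, and DESeq2 0 of the 10 and 0.0434% of all genes. At an unadjusted p under 0.05 there were 2 of 10, against 4.80% of all genes. The common sign depended on the model: with sex as a term, Fkbp5 (0.39) and Ddit4 (0.24) were positive, and Fkbp5, whose value lies near 0, was positive in edgeR, in DESeq2, on TMM-scaled CPM and without the libraries not titled Joint.

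The 10 genes did not move as 1 block from library to library. Over the 45 pairs, the median Pearson correlation across the 18 libraries was 0.17, with 30 pairs positive and a range of -0.55 to 0.82. After removing group means the median was 0.14. These correlations are descriptions over libraries that share depth and tissue makeup. The closest pairs were Ddit4 with Cebpd (0.82, and 0.79 without group means) and Tsc22d3 with Klf9 (0.75 and 0.66). After the correlations were seen, 2 loose sets were picked out. Fkbp5, Cebpd, Sgk1 and Ddit4 correlated with each other at 0.41 to 0.82, and Tsc22d3, Klf9 and Zbtb16 at 0.53 to 0.75, while correlations between the sets ran from -0.27 to 0.17. In the first set, removing group means left 0.79 for Ddit4 with Cebpd and 0.58 for Ddit4 with Fkbp5, and took every pair with Sgk1 to between -0.05 and 0.13.

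**Figure D3:**
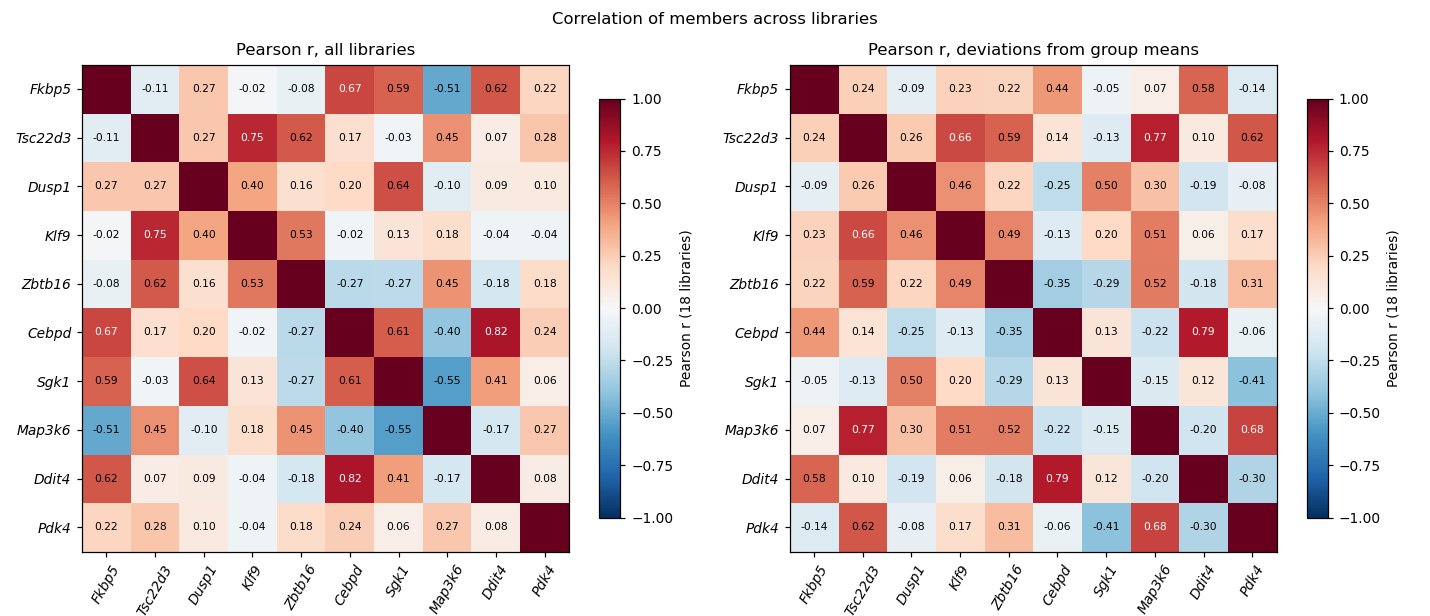
Pearson correlation of log2(normalized count + 1) between the 10 genes over the 18 libraries (left) and of deviations from group means (right); colours run from -1 (blue) to 1 (red). Ddit4 with Cebpd and Tsc22d3 with Klf9 stay high in both panels, while Fkbp5 with Sgk1 goes from 0.59 to -0.05.

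The mean of the 10 genes, each standardized over libraries, was lowest in WT control, at -0.66 to -0.34 SD units, and between -0.08 and 0.34 in Sema3b-/- control. WT arthritis ran from 0.13 to 0.93. Sema3b-/- arthritis had the widest range, from -0.82 in replicate 2 and -0.45 in replicate 1 to 0.78 in replicate 4. In that last library, 10 of 10 genes were above their own medians over the 18 libraries. Replicate 4 thus had a mean near the top of WT arthritis, while replicate 2 had the lowest mean of all libraries. The 2 lowest libraries of Sema3b-/- arthritis were those not titled Joint. The remaining arthritis library not titled Joint, WT arthritis 5, had the highest mean of all libraries, at 0.93.

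**Figure D4:**
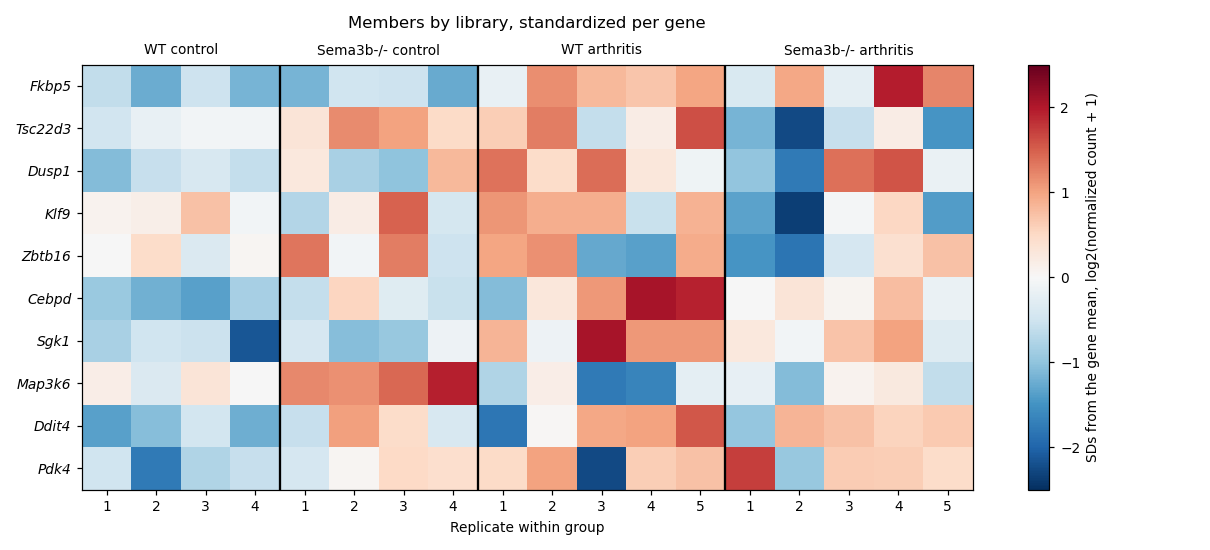
Level of each gene (rows) in each library (columns, by group and replicate), in SDs from the gene's mean over the 18 libraries on the log2(normalized count + 1) scale. Sema3b-/- arthritis 2 is low in Tsc22d3, Dusp1, Klf9 and Zbtb16 and above the mean in Fkbp5 and Ddit4, and Sema3b-/- arthritis 4 is above the median of each gene.

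The genes outside the list with the highest correlation with that mean were Tmem147 (0.75), Rpl31-ps12 (0.73), Nr4a1 (0.70), 1110034G24Rik (0.69) and Lamtor4 (0.69), over 18 libraries. After removing group means their correlations were 0.44, 0.40, 0.54, 0.79 and 0.55. The genes most like Fkbp5 were Lsmd1 (0.86), Clec4a2 (0.85), Bsg (0.85), Snrpd1 (0.85) and Tfec (0.84), with 0.67, 0.57, 0.81, 0.55 and 0.57 after removing group means. Likeness here is a rank among 13809 genes and says nothing of shared control.

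Tissue markers differed widely between arthritis libraries. Summed skeletal muscle markers (8 genes) took 1.31% to 1.67% (WT) and 1.25% to 2.93% (Sema3b-/-) of counts in control paws, and 0.121% to 1.87% (WT) and 0.151% to 1.22% (Sema3b-/-) with arthritis. Epidermis markers (8 genes) took 1.09% to 1.63%, 0.919% to 3.99%, 0.0461% to 1.36% and 0.0502% to 1.32% in the same order. WT arthritis 3 and Sema3b-/- arthritis 2 were the lowest of their groups in both, and no marker of either list was at 0 in all libraries of a group. Map3k6 moved with epidermis markers (r = 0.82, and 0.85 without group means), Pdk4 with muscle markers (0.43 and 0.87), and Tsc22d3 with Schwann cell markers (0.57 and 0.79), epidermis markers (0.48 and 0.73) and muscle markers (0.61 and 0.68). Schwann cell markers (6 genes) took 0.0678% to 0.0936% (WT) and 0.0606% to 0.0914% (Sema3b-/-) in control paws, and 0.0293% to 0.0490% (WT) and 0.0279% to 0.0503% (Sema3b-/-) with arthritis, so they were lower with arthritis in both genotypes. The interaction was negative for 8 of 8 muscle markers (median -0.68) and for 6 of 6 cartilage markers (median -1.34). It was positive for 7 of 8 epidermis markers (median 0.33) and for 3 of 6 Schwann cell markers (median -0.01). The interaction was called for no marker of these lists. For arthritis against control, limma called 2 of 6 Schwann cell markers in WT and 4 of 6 in Sema3b-/- mice, all as lower. It called 0 of 6 cartilage markers in WT and 3 of 6 as lower in Sema3b-/- mice. No muscle or epidermis marker was called in either genotype. Of all genes, limma called 4.21% in WT and 12.4% in Sema3b-/- mice. The part of the tissue marker shares in the differences of Tsc22d3, Map3k6 and Pdk4 was not tested. The highest Map3k6 value (98.3, Sema3b-/- control 4) and the highest epidermis share (3.99%) were in the same library. Without WT arthritis 3 and Sema3b-/- arthritis 2, a choice made after the data were seen, Tsc22d3 in Sema3b-/- mice was -0.89 and Map3k6 -1.06, both still called, and Sgk1 in WT was 1.04 and still called. Cebpd in WT (1.37) and Fkbp5 in Sema3b-/- mice (0.67) were then not called, and Pdk4 in WT (1.63) was called.

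**Figure D5:**
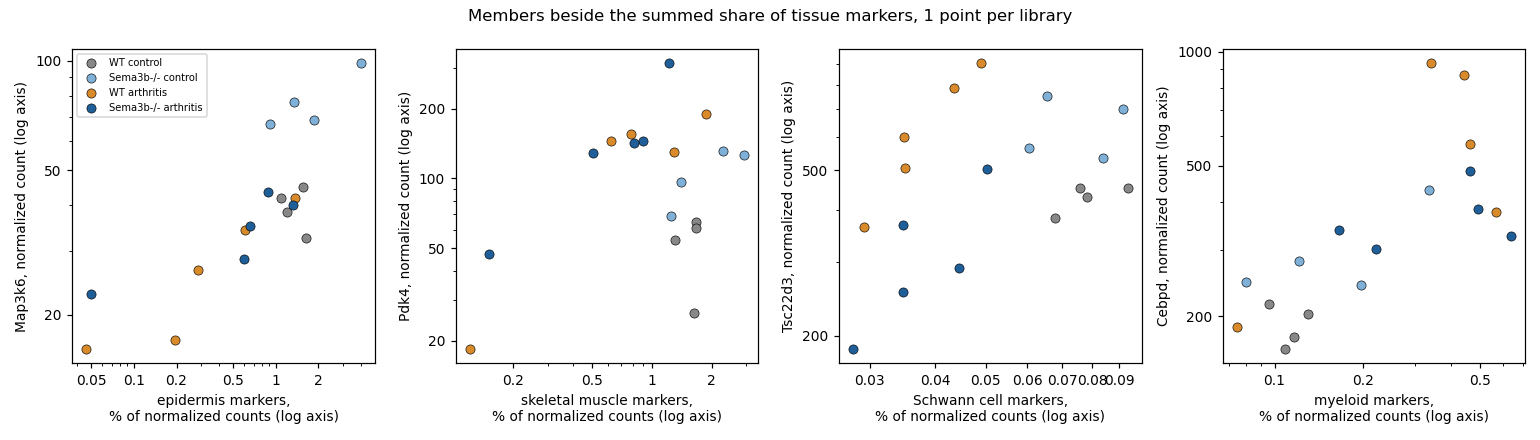
Normalized count of a gene (y axis, log) against the share of counts taken by a marker list (x axis, log) in each library, coloured by group. Map3k6 follows the epidermis share in the arthritis libraries, and in WT arthritis 3 and Sema3b-/- arthritis 2, the points lowest in muscle markers, Pdk4 had 18.4 and 47.4.

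Other glucocorticoid targets were read from a list of 24 genes, of which 23 were tested. In WT arthritis 5 were higher and 1 lower, where limma called 4.21% of all genes, and the median over the list was 0.44 against -0.02 over all genes. Errfi1, an inhibitor of the EGF receptor, rose by 1.52 (SE 0.20, adjusted p = 0.00081 in limma), from 202 ± 13.7 (SD, n = 4) to 597 ± 171 (SD, n = 5). Nfkbia, the inhibitor of NF-kappaB, rose by 0.82 (SE 0.15), and the metallothioneins Mt1 and Mt2 by 0.93 (SE 0.19) and 1.05 (SE 0.24). The other called genes, named after their values were seen, were Rgs2 (1.33, SE 0.33) and Cdkn1a (-0.74, SE 0.19). With sex as a term only Errfi1 was still called (1.36, adjusted p = 0.020 in limma). The differences of Mt1 (0.98, adjusted p = 0.057 in limma), Mt2 (1.10) and Nfkbia (0.69, adjusted p = 0.080 in limma) kept their direction, and those of Rgs2 and Cdkn1a were 0.94 and -0.57. The calls of Errfi1, Nfkbia and Mt1 held with each of the 18 libraries left out in turn, while Mt2 was called in 12, Rgs2 in 11 and Cdkn1a in 10 of those 18 fits. The calls lost were without any WT control library (for Mt2, any but WT control 1), without WT arthritis 3, 4 or 5, and for Cdkn1a also without Sema3b-/- arthritis 5. Reads of Mt1 and Mt2 can be shared, since the genes are close copies.

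In Sema3b-/- arthritis 5 of the 23 rose and 2 fell, with a median of 0.09 and with 12.4% of all genes called. Mt1 rose by 1.58 (SE 0.19) and Mt2 by 1.93 (SE 0.24), both with the groups apart. Per1, a clock gene and known receptor target, fell by 1.74 on the log2 scale (adjusted p = 0.0030 in limma), and Cdkn1a changed by -1.06 (SE 0.19). The other 3, named after their values were seen, were Angptl4 (2.56), Rgs2 (1.20) and Il1r2 (1.36). The Rgs2 call was lost without Sema3b-/- control 1, 3 or 4 or Sema3b-/- arthritis 2 or 5, and that of Il1r2 held in 6 of the 18 fits with 1 library left out. Errfi1 had 0.19 (SE 0.20) in Sema3b-/- mice, with 250.5 ± 20.5 (SD, n = 4) in control and 293 ± 77.8 (SD, n = 5) with arthritis. Per1 was still called with sex as a term and with each of the 18 libraries left out in turn.

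Per1 and Errfi1 had the largest genotype gaps among these targets in arthritis paws in the downward direction. Per1 had 81.0 ± 18.1 (SD, n = 4) normalized counts in WT and 187 ± 61.6 (SD, n = 4) in Sema3b-/- control paws. With arthritis it had 120.3 ± 15.3 (SD, n = 5) and 58.8 ± 31.9 (SD, n = 5). Its interaction of -2.32 (SE 0.45) had the lowest p of all 13809 genes and still did not pass (adjusted p = 0.449 in limma). Errfi1 had an interaction of -1.33 (SE 0.28, adjusted p = 0.449 in limma) and Sema3b-/- minus WT in arthritis of -1.02 (SE 0.19, adjusted p = 0.0635 in limma). Mt1 and Mt2 went the other way, at 0.84 (SE 0.17) and 0.95 (SE 0.23) in Sema3b-/- against WT arthritis, neither called by limma. DESeq2 as rerun here called Errfi1, Mt1 and Mt2 in this contrast, and Errfi1 for the interaction. It called 0.681% and 0.0434% of all genes there. The targets as a group thus had no common direction between the genotypes: 9 of 23 were higher in Sema3b-/- arthritis, with a median of -0.05.

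The receptor, its chaperones and the steroid enzymes formed another list. Nr3c1, which encodes the receptor, had 712 ± 44.0 (SD, n = 4) normalized counts in WT and 626 ± 103 (SD, n = 4) in Sema3b-/- control paws, then 645 ± 117 (SD, n = 5) and 527 ± 75.8 (SD, n = 5) with arthritis, and no contrast was called. Hsd11b1, whose enzyme regenerates active hormone inside cells, had means of 44.0, 56.5, 88.6 and 70.6 in the same order. Its difference of 0.78 (SE 0.43) in WT was the largest of the list in that genotype, and no contrast of it was called. Of 12 tested genes of this list, limma called 1 in WT and 2 in Sema3b-/- mice, where it called 4.21% and 12.4% of all genes. Hsp90aa1 rose in both genotypes, by 0.67 (SE 0.13, adjusted p = 0.0114 in limma) in WT and 0.76 (SE 0.13, adjusted p = 0.0022 in limma) in Sema3b-/- mice. The WT call was lost without WT control 3 (adjusted p = 0.0550 in limma). Ptges3, the Hsp90 co-chaperone known as p23, rose in Sema3b-/- mice (0.36, SE 0.11) and had a difference of 0.24 (SE 0.11) in WT that was not called, nor was the interaction. Its call was lost without Sema3b-/- control 2 or 3 or Sema3b-/- arthritis 1, 2 or 4.

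Lists of genes that share other inputs with the members were read in the same way. Of 14 inflammatory genes known to be repressed by glucocorticoids, 4 rose in WT (Ptgs2, Mmp3, Il1b and Cxcl5) and 8 in Sema3b-/- arthritis, with medians of 2.45 and 2.46, where limma called 4.21% and 12.4% of all genes. EdgeR called 8 in WT and 7 in Sema3b-/- mice and DESeq2 8 in each, and limma called no gap between genotypes. Of 14 tested clock genes, 6 fell in WT, and 7 fell and 1 rose in Sema3b-/- mice. Per1 belongs to this list as well. With sex as a term, limma called 1 of these 14 in WT and 11 in Sema3b-/- mice. The share of all genes called in that fit is not given here, so nothing is read from these counts. Of 10 immediate early genes, 4 rose in WT (Atf3, Jun, Fosb and Nr4a1), and edgeR and DESeq2 called 6 each. In Sema3b-/- mice limma called 0 of them, with 3 at an unadjusted p under 0.05 against 28.5% of all genes, while edgeR called 1 and DESeq2 3, and the interaction was called for 0. Of 12 fasting genes, limma called 0 in WT, with 2 at an unadjusted p under 0.05 against 21.2% of all genes, and edgeR and DESeq2 called 1 each. Limma called 1, Angptl4, in Sema3b-/- mice. Of the 8 inflammatory and immediate early genes called in WT, Atf3 was called in 18 of the 18 fits with 1 library left out, Ptgs2 in 17, Jun and Fosb in 12 each, Mmp3 in 11, Nr4a1 in 8, and Il1b and Cxcl5 in 5 each. In WT, with sex as a term, 0 of the 14 inflammatory and 0 of the 10 immediate early genes were called, while the differences kept their direction: Atf3 went from 2.32 to 2.27, Nr4a1 from 2.23 to 2.14, Fosb from 3.75 to 3.40, Jun from 0.67 to 0.59, Ptgs2 from 3.16 to 2.42, Mmp3 from 2.96 to 2.22, Il1b from 3.37 to 2.68 and Cxcl5 from 4.02 to 3.57.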

How the data were processed

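RNA of 18 forepaw libraries was read by CEL-seq, per the labels' protocols, aligned with BWA to mm10 and analysed with DESeq2 1.32, per the submitters' processing notes. The sources used here do not name the annotation, the counter or any use of molecular barcodes. The deposited table gives a signal per gene and library, the reads over the library's size factor (normalized count); 100% of values came out as whole reads within 0.02 of a read. The other deposited tables hold the authors' comparisons: a mean signal, log2 fold changes, p-values and adjusted p-values, and a score. A limma-trend model (limma 3.58.1, R 4.3.3) with robust empirical Bayes and 4 group means was fitted to log2(value + 1) of 13809 genes, with Benjamini-Hochberg adjustment over all of them; a call is an adjusted p under 0.05. The pseudocount makes the fold changes of low genes too small. On the recovered reads, edgeR 4.0.16 (quasi-likelihood, TMM) called 742 genes in WT and 1623 in Sema3b-/- arthritis, against 582 and 1710 in limma, and DESeq2 1.42.0 called 1279 and 2221. The fits were tested on simulated data. Other settings were a pseudocount of 0.5 or 5, no filter or one at 50, sex or replicate number as a term, standard empirical Bayes, each library left out, and sets of libraries left out. The 10 genes and all gene lists were chosen with earlier results of these data known. All 10 genes are described; from each other list, up to 4 genes with the lowest p in each arthritis contrast, and any called between genotypes, could be named. Animal numbers in the titles differ between libraries, yet no label says outright that the animals are separate, so p-values measure the spread between libraries. None of the 32 pairs within a group agreed within sampling noise (chi-square 9.59 to 197 per degree of freedom). The title of Sema3b-/- control 4 repeats the number 3, and the column of Sema3b-/- arthritis 5 has an ending that reads as control while its title and treatment label say arthritis; it was used as arthritis. Gene coordinates are on mm10 (GENCODE), 1-based, and promoter sequences are RefSeq's. Intervals from read numbers cover counting error only.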

Additional observations from a re-analysis of the deposited data

Results flagged for a closer look

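Within the 40 combinations of a gene and a group, each of 4 or 5 libraries, 2 had a library that stood apart from the rest by Dixon's criterion at 95%, and chance alone flags about 1 in 20 such groups. Klf9 had 960.3 normalized counts in WT arthritis 4, where the other 4 libraries of that group had 1649.8 to 1805. Ddit4 had 121 normalized counts in Sema3b-/- arthritis 1, where the other 4 had 225 to 253. Groups of 3 did not occur.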

How the results depend on the processing

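The number of the 10 genes called in WT arthritis was 2, and it was 4 in DESeq2, 1 with sex as a term, 1 with the replicate block, 1 without the 3 arthritis libraries not titled Joint, and 1 to 4 with 1 library left out (1 without any WT control library or WT arthritis 3, 4 or 5, and 4 without WT arthritis 1). In Sema3b-/- arthritis it was 3, then 0 without the libraries not titled Joint, 2 with no filter, with the replicate block or without the 2 arthritis libraries lowest in muscle markers, and 2 to 3 with 1 library left out. In Sema3b-/- against WT arthritis it was 0, and 1 in DESeq2. Among the other glucocorticoid targets, 6 were called in WT, then 1 with sex as a term, 3 with the replicate block, 3 without the libraries not titled Joint and 3 to 8 with 1 library left out. In Sema3b-/- arthritis 7 were called, and 5 to 7 with 1 library left out. In Sema3b-/- against WT arthritis 0 were called, then 3 in DESeq2 (Errfi1, Mt1 and Mt2) and 0 to 1 with 1 library left out. The interaction had 0, then 1 in DESeq2 (Errfi1). The cause of these moves was not tested. No called member changed direction under any setting tried. The median correlation between the 10 genes was 0.17, 0.14 after removing group means and 0.18 without the shallowest library. Same-numbered libraries were not closer to each other (median correlation of deviations 0.02, against -0.01 for other pairs, and 3 of 18 libraries closest to their own number). No pairing by number was thus seen, and with so few libraries per group the check cannot exclude one. In the shallowest library, with 1732783 reads, Fkbp5 rested on 11 reads, Map3k6 on 17 and Zbtb16 on 8.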
